A study of Homo sapiens with 6 samples.

Results

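The expansion segment 7 area of human 28S ribosomal RNA was taken as the stretch that starts after the first 440 positions of 28S and ends 3760 positions before its 3′ end, with positions counted from 1 at the 5′ end. It holds 870 of the 6939 positions measured over 18S and 28S rRNA, and the other 4200 positions of 28S served for comparison. The members were set by position alone, and comparisons used those crossed by 100 or more reads in each library of a pair. All libraries came from total RNA over 200 nt of HEK293T/17 cells, a line from human embryonic kidney, so groups differ in chemistry and not in the cells. RNA fragments were treated with CMC or mock-treated and reverse transcribed with HIV RT, with SuperScript III (the labels' SIII) and manganese, or with SuperScript III and magnesium. The 6 groups were HIV RT with CMC, HIV RT mock, SuperScript III Mn with CMC, SuperScript III Mn mock, SuperScript III Mg with CMC and SuperScript III Mg mock. HIV RT also ran with magnesium. Each group had 1 library, so no difference has a replicate check. The tables hold rRNA only, so no marker gene could check the labelled line.

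Expansion segments are insertions that eukaryotic rRNA has gained on top of the core shared with bacteria, and expansion segment 7 is among the longest of them in the human large subunit. Its arms are very rich in G and C, lie on the outside of the ribosome, and differ between the many copies of ribosomal DNA in a genome. CMC is a carbodiimide that attaches to uridine, guanosine and pseudouridine, and an alkaline wash normally leaves it on pseudouridine. The labels describe no such wash. A reverse transcriptase that meets the adduct may stop, which ends the cDNA, or read through with a wrong base.

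Sequences are printed 5′ to 3′ from the reference bases of the deposited tables, with T for U. The first stretch (positions 598 to 636) holds the coverage minimum, the second (901 to 924) the densest group of CMC stops, and the third (845 to 895) a GGC repeat read with several other bases. The capitals mark in turn positions under 100 crossing reads in a mock library, positions with more stops after CMC in all 3 conditions, and positions where the same other base made up at least 1% of reads in all 6 libraries. The next 4 stretches (813 to 841, 1015 to 1043, 1132 to 1160 and 1288 to 1316) carry single strong stop changes, and the last 2 (587 to 607 and 782 to 802) carry changed bases outside the repeat. In these 6, the capital is the position named.
Coverage minimum: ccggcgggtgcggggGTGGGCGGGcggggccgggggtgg
Stop group: cccccccgagTGTTacagcccccc
GGC repeat: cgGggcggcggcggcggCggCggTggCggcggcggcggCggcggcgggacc
Stop at 827: ccccgcgtcctcccTcgggagggcgcgcg
Stop at 1029: cccccgcgagggggGtctcccccgcgggg
Stop at 1146: ggcgacggggggggTgccgcgcgcgggtc
Stop at 1302: gcggcgacgtcggcTacccacccgacccg
Base at 597: gggggcgggcTccggcgggtg
Base at 792: gtcctcctccTcccccgtctc

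The segment was 83.1% G and C, against 66.6% in the rest of 28S. It had 87 uridines, and the rest of 28S had 666 (15.9%). Cytidine followed 63 of the 87. The segment held 12 runs of at least 5 G, the longest of 8, while the much longer rest of 28S held 13. GGC repeated at least 4 times in a row at 2 places, 848 to 865 and 869 to 889, and at 3 places elsewhere.

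The segment was read less deeply than the rest of 28S in every library, and relatively more deeply after CMC than in mock. Its median crossing count was 35.7% of the library's 28S median in HIV RT with CMC, against 18.7% in mock. With SuperScript III Mn it was 39.6% with CMC and 12.5% in mock. With SuperScript III Mg it was 38.0% with CMC and 10.7% in mock. The ratio of CMC to mock was thus 1.91, 3.17 and 3.54 in these 3 conditions. The segment makes up 17.2% of the length of 28S and held 6.62%, 8.02% and 7.26% of its stops with CMC, against 4.07%, 3.38% and 3.14% in mock. The 28S medians themselves were 60611 crossing reads with CMC and 207084 in mock for HIV RT, 73512 and 158140 for SuperScript III Mn, and 66070 and 119172 for SuperScript III Mg. Within the segment the median crossing counts were 21650 with CMC and 38636 in mock for HIV RT, 29102 and 19772 for SuperScript III Mn, and 25084 and 12796 for SuperScript III Mg. The 28S median was thus lower with CMC in each condition, but the segment's median was higher with CMC for both SuperScript III conditions.

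**Figure D1:**
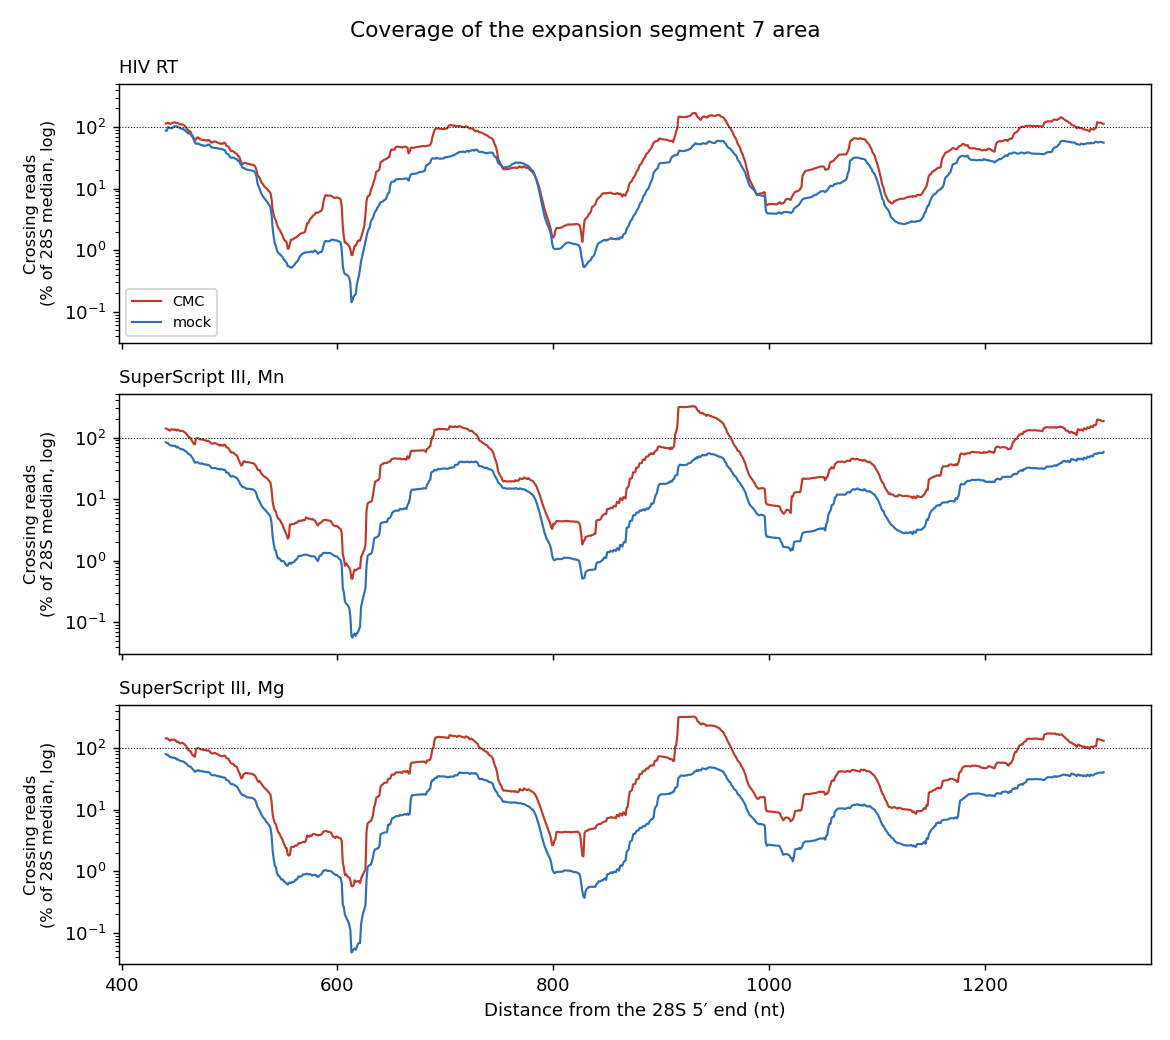
Crossing reads at each position of the segment, as percent of the same library's 28S median on a log axis, against the distance from the 28S 5′ end in nt. CMC is drawn in red and mock in blue, with a panel for each condition and a dotted line at the 28S median. The deepest minimum, at 613 and 614, lies in the same place in all 6 libraries, and the CMC line runs above the mock line over nearly the whole segment.

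Coverage fell into separate minima whose places were shared by all libraries. The lowest counts were at 613 and 614, a guanosine and a uridine. At 613, 503 reads crossed with CMC and 295 in mock for HIV RT, 376 and 95 for SuperScript III Mn, and 380 and 57 for SuperScript III Mg. The 9 positions from 613 to 621 stayed under 100 crossing reads in the SuperScript III Mg mock library, and 4 of them in the SuperScript III Mn mock library. Comparisons therefore covered 870 positions for HIV RT, 866 for SuperScript III Mn and 861 for SuperScript III Mg. Just inside the threshold, position 612 had 472 crossing reads with CMC and 132 in mock for SuperScript III Mg. Just outside, position 621 had 424 with CMC and 81 in mock.

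In windows of 30 nt, mean coverage averaged over the 3 mock libraries was lowest at 591 to 620, at 801 to 830 and at 561 to 590. The window at 591 to 620 had 4.01% of the 28S median with CMC and 0.817% in mock for HIV RT, 2.19% and 0.627% for SuperScript III Mn, and 2.17% and 0.480% for SuperScript III Mg. The window at 801 to 830 had 2.43% and 1.09%, 3.94% and 0.975%, and 4.0005% and 0.890% (CMC and mock, in the same order of conditions). The window at 561 to 590 had 3.49% and 0.934%, 4.45% and 1.19%, and 3.57% and 0.874%. All 3 were below 5% in every library, and each was higher with CMC. The order of windows differed between single libraries. In the SuperScript III Mg mock library, 831 to 860 had 0.748%, below 801 to 830 and 561 to 590.

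Mean mock coverage was highest in the first and the last window of the segment and in the middle at 921 to 950. The window at 921 to 950 reached 150% of the 28S median with CMC against 51.1% in mock for HIV RT, 270% against 46.9% for SuperScript III Mn, and 274% against 42.8% for SuperScript III Mg. It lay above the 28S median with CMC and below it in mock in all 3 conditions. The first window had 118% with CMC and 62.8% in mock for SuperScript III Mn, and the last window had 150% and 49.1%. The jump before 921 was steep with CMC: in SuperScript III Mg, relative coverage was 110% at 914 and 316% at 916 with CMC, against 22.8% and 32.8% in mock.

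Base composition moved with coverage inside and outside the segment. Spearman's rho between G and C content and relative coverage over the 29 windows of the segment was -0.51 with CMC and -0.54 in mock for HIV RT, and between -0.50 and -0.55 in the other 4 libraries. Over the 139 windows of the rest of 28S it lay between -0.49 and -0.77. Windows share reads with their neighbours and come from the same library, so these are descriptions.

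Among windows with at least 80% G and C, 22 in the segment and 41 elsewhere, the mock medians were close: 8.48% in the segment and 9.27% elsewhere for HIV RT, 5.91% and 5.48% for SuperScript III Mn, and 5.52% and 5.11% for SuperScript III Mg. With CMC the same medians were 23.3% and 18.8%, 29.1% and 20.9%, and 27.1% and 17.0%. The median ratio of CMC to mock in these windows was 2.22 in the segment and 1.74 elsewhere for HIV RT, 3.50 and 2.57 for SuperScript III Mn, and 3.89 and 2.89 for SuperScript III Mg. Mock coverage was thus similarly low in G and C rich windows elsewhere, and the ratio exceeded 1 at the median in both sets. Over all windows, the ratio exceeded 1 in 28, 29 and 29 of the segment's 29, against 98, 96 and 102 of the 139 others.

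**Figure D2:**
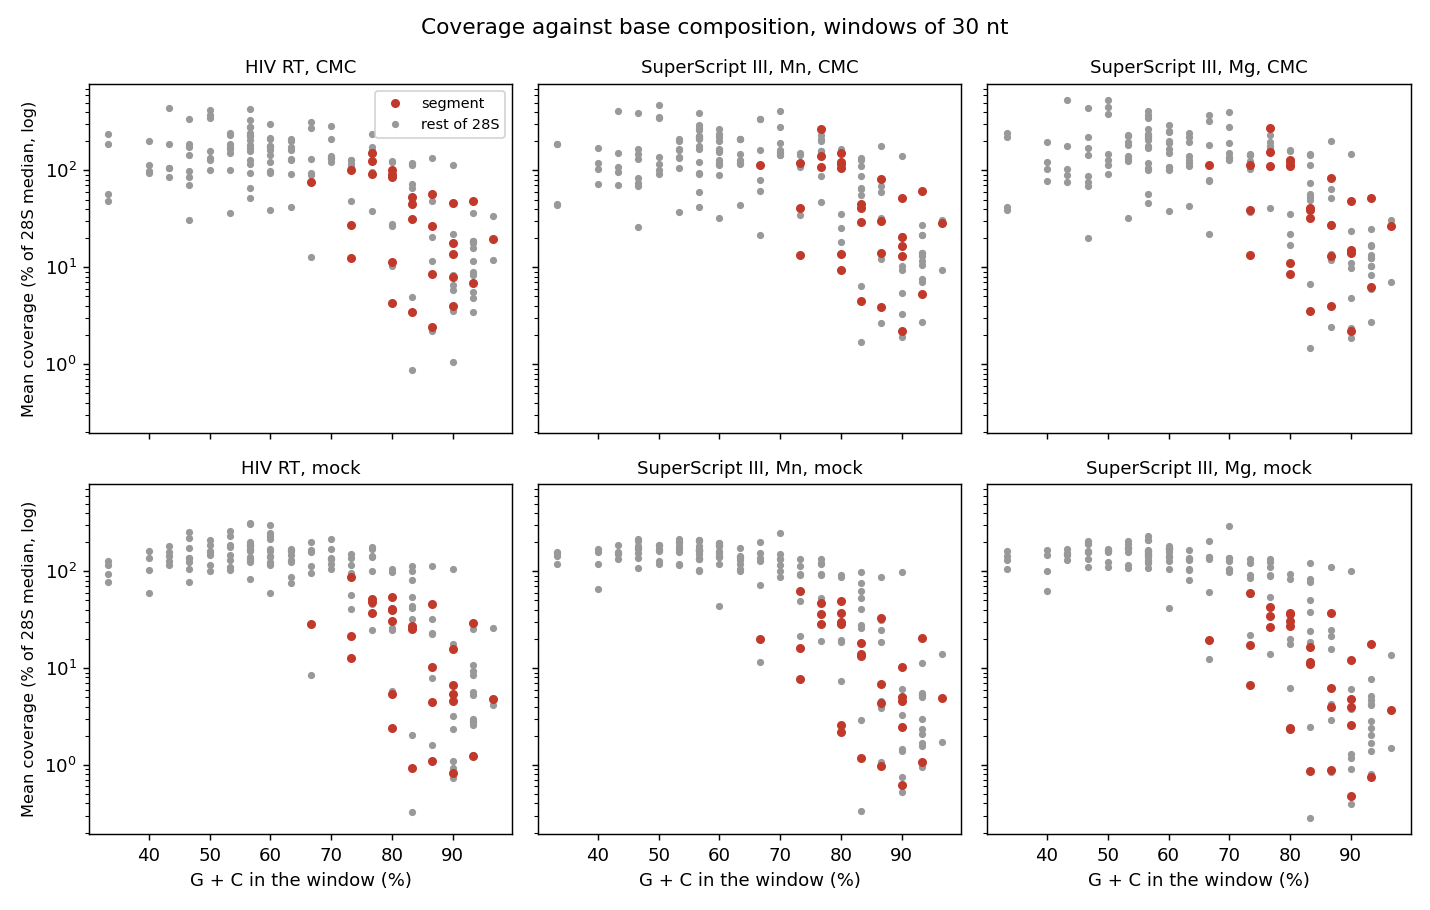
Mean coverage of each window of 30 nt, in percent of the library's 28S median on a log axis, against the percent of G and C in the window. Red points are the 29 windows of the segment and grey points the 139 windows of the rest of 28S, with CMC libraries in the upper row and mock libraries in the lower. Red and grey points overlap over most of their range among windows with at least 80% G and C, and both fall as G and C content rises.

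The stop share is the percent of reads ending at a position among those ending at or crossing it. Each CMC library was compared with its mock by a two-sided Fisher's exact test per position, adjusted over 18S and 28S together, and a position was called at an adjusted value under 0.05 and a difference of at least 5 percentage points. Such a call compares 2 libraries, and Wilson intervals given here cover counting error only, because no molecular identifiers separate PCR copies. For HIV RT, stops rose at 66 of 870 positions (7.59%), and 10.1% were called higher over all 6935 positions of both rRNAs. For SuperScript III Mn they rose at 49 of 866 (5.66%), against a background of 8.38%. For SuperScript III Mg they rose at 52 of 861 (6.04%), against 9.22%. The share called higher was below the background in each condition.

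Uridines made up 30 of the 66 positions that rose with HIV RT, 17 of the 49 with SuperScript III Mn and 38 of the 52 with SuperScript III Mg. Guanosines made up 23, 20 and 11, and cytidines 11, 9 and 2. Among uridines of the segment, 34.5%, 19.8% and 44.2% were called higher in these 3 conditions, against 38.0%, 25.98% and 44.4% of all uridines in the rest of 28S. No uridine of the segment was called lower in any condition. In the rest of 28S it was 0 of 666 uridines for HIV RT, 4 of 666 (0.601%) for SuperScript III Mn and 1 of 665 (0.150%) for SuperScript III Mg. The segment held none of the 59 positions of a list of 28S pseudouridines written from general knowledge. All uridines in the rest of 28S include the 58 listed positions that lie on U. Of the 608 uridines elsewhere that are not on that list, 208 were called higher for HIV RT and 138 for SuperScript III Mn. For SuperScript III Mg it was 244 of 607. In the segment the same counts were 30 of 87, 17 of 86 and 38 of 86. The following comparison used these unlisted uridines.

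The median stop change at uridines of the segment, CMC minus mock, was 2.98 points for HIV RT, 0.363 for SuperScript III Mn and 4.05 for SuperScript III Mg. At unlisted uridines elsewhere it was 2.95, 1.27 and 3.61 points. With reads pooled over the segment's uridines, which gives deep positions more weight, the change was 6.36, 6.43 and 9.70 points. Segment values ran from -1.71 to 32.7 points for HIV RT, from -3.88 to 25.4 for SuperScript III Mn and from -1.10 to 51.4 for SuperScript III Mg. The change was above 0 at 85 of 87, 62 of 86 and 78 of 86 uridines. The segment's median was close to that of unlisted uridines elsewhere for HIV RT, lower for SuperScript III Mn and higher for SuperScript III Mg.

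The base on the 3′ side went with the size of the change. The 63 uridines before cytidine had medians of 2.13, 0.0919 and 2.62 points (HIV RT, SuperScript III Mn, SuperScript III Mg). The 9 before another uridine had 10.7, 4.75 and 18.3 points. Because the placing of a stop beside the last copied base is not given, these cannot be told apart from stops of the next uridine. Those before guanosine, 13 for HIV RT and 12 for the others, had 6.01, 2.13 and 6.56 points. The 2 before adenosine, at 914 and 1302, had 22.2, 22.0 and 23.5 points. The order was adenosine, uridine, guanosine, cytidine in all 3 conditions. Unlisted uridines elsewhere had the same order, with 9.55, 7.84 and 12.6 points before adenosine, 5.68, 3.51 and 6.19 before uridine, 2.52, 1.04 and 3.42 before guanosine and 1.53, 0.252 and 1.92 before cytidine. Uridines before cytidine were 72.4% of the segment's uridines and 34.0% of the unlisted ones elsewhere for HIV RT. At a given 3′ base the segment's median was the higher one in each condition, except before cytidine with SuperScript III Mn.

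**Figure D3:**
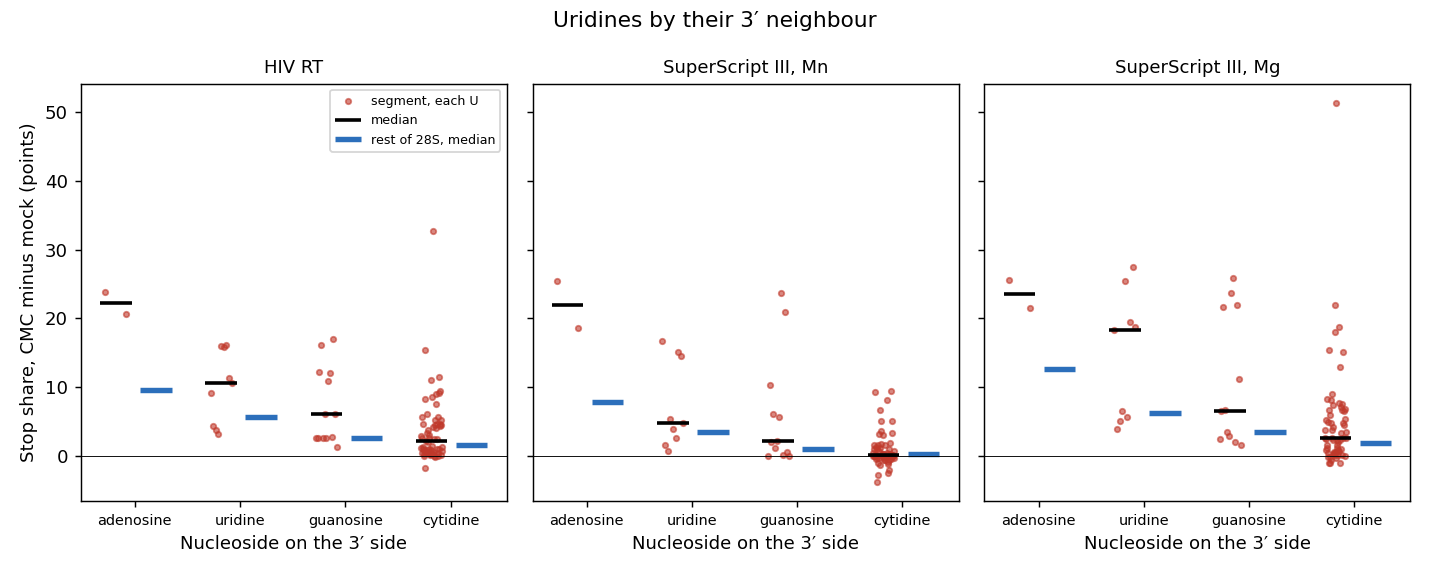
Change in stop share, CMC minus mock in percentage points, at each uridine of the segment (red points) by the nucleoside on its 3′ side, with a panel for each condition. Black bars are the segment's medians and blue bars the medians of unlisted uridines in the rest of 28S; points are spread sideways only to separate them. The segment's medians lie highest before adenosine and lowest before cytidine in each panel.

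Positions 911 to 914 formed the densest group of stops in the segment. All 4 were called higher in all 3 conditions. In all, 15 of 861 positions of the segment (1.74%) were, against a background of 4.34%. At 914, a uridine before adenosine, the stop share was 39.8% with CMC and 16.0% in mock for HIV RT, 57.0% and 31.6% for SuperScript III Mn, and 59.2% and 33.6% for SuperScript III Mg. At 911, a uridine before guanosine, it was 17.7% and 5.77%, 40.8% and 17.2%, and 44.2% and 18.4%. Stops were thus frequent there already in mock, and more so with the SuperScript III libraries. At 913, the first uridine of the pair, the share was 16.4% and 5.11%, 21.6% and 7.09%, and 36.0% and 8.55%. The guanosine at 912, directly before the uridine at 913, changed by 15.6, 9.72 and 6.50 points. The placing of a stop beside the last copied base is not given. A rise at 912 can therefore not be told apart from stops that belong to 913.

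Position 1302, a uridine before adenosine near the 3′ end of the segment, had a stop share of 22.0% with CMC and 1.33% in mock for HIV RT. With SuperScript III Mn it was 20.2% and 1.58%, and with SuperScript III Mg 26.1% and 4.62%. The rises of 20.6, 18.6 and 21.5 points lay close together. At 1146, a uridine directly after the longest run of G, the share was 22.6% and 5.54%, 33.4% and 12.4%, and 39.0% and 17.0%, and rises were 17.0, 21.0 and 22.0 points. Mock stops at 1146 exceeded those at 1302 in every condition.

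Positions 625 and 554 were also among the 6 with the largest mean rise over conditions. At 625, a guanosine at the edge of the coverage minimum, 48.5% of reads stopped with CMC and 19.4% in mock for HIV RT, 75.8% and 61.5% for SuperScript III Mn, and 77.3% and 65.4% for SuperScript III Mg. At 554, a cytidine before uridine, it was 23.9% and 8.55%, 42.2% and 8.56%, and 13.5% and 8.05%. Mock shares at 554 were nearly equal, while the rise was 33.7 points with SuperScript III Mn and 5.43 with SuperScript III Mg. The other positions called higher in all 3 conditions were 467, 686, 688, 798, 868, 1029 and 1159. Their rises ran from 5.57 to 31.2 points. Of these, 467 and 688 are uridines before another uridine. At 467 the stop share was 10.9% with CMC and 1.72% in mock for HIV RT, 22.6% and 5.82% for SuperScript III Mn, and 25.996% and 7.73% for SuperScript III Mg. At 688 it was 18.5% and 2.38%, 24.0% and 8.80%, and 29.1% and 9.63%. At 1159, a uridine before cytidine, it was 14.2% and 2.75%, 11.1% and 1.66%, and 18.1% and 3.00%. These 3 uridines were picked from positions called higher in all 3 conditions, so the CMC library is the higher one in every pair by that choice. Their mock shares stayed under 10%.

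**Figure D4:**
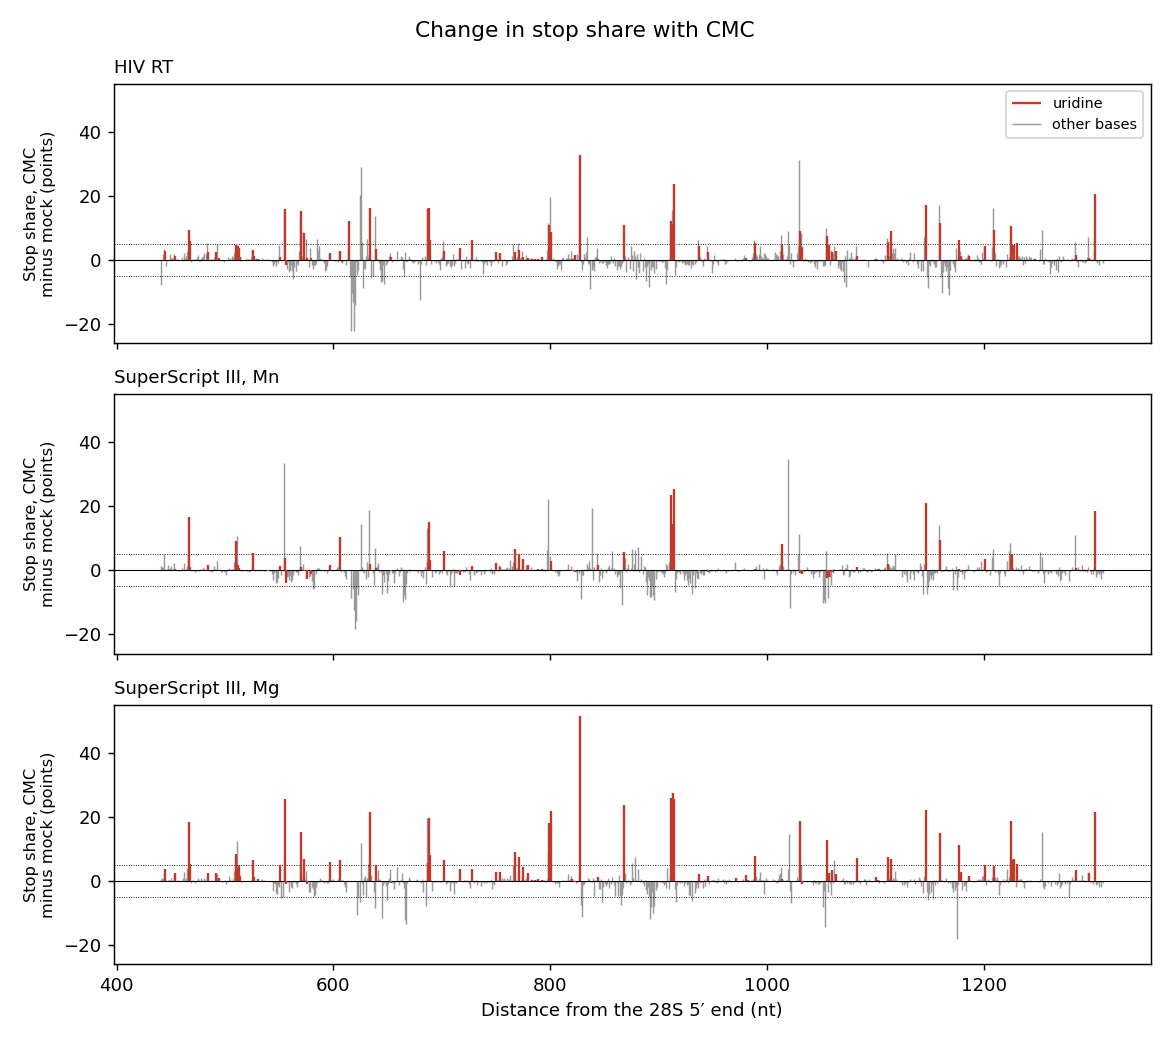
Change in stop share, CMC minus mock in percentage points, at each tested position of the segment against the distance from the 28S 5′ end in nt, with a panel for each condition. Uridines are red and other bases grey, and dotted lines mark 5 points either way. Rises at uridines stand out at 911, 913, 914, 1146 and 1302 in all panels, at 827 in the HIV RT and SuperScript III Mg panels, and no uridine falls below the lower dotted line.

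Some stops differed by condition. Position 827, a uridine before cytidine in the second coverage minimum, held the largest called rise of the segment for HIV RT and for SuperScript III Mg. Its stop share was 45.1% with CMC and 12.4% in mock for HIV RT and 59.5% and 8.11% for SuperScript III Mg. With SuperScript III Mn it was 13.9% and 13.7% (adjusted p = 0.92, Fisher's exact test). The cytidine before it, at 826, had 34.3% and 8.34% for HIV RT, 22.1% and 22.9% for SuperScript III Mn and 15.9% and 14.6% for SuperScript III Mg, and was called only for HIV RT. The difference between conditions was not itself tested.

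Position 1029, the last G of a run of 6 before a uridine, rose in all 3 conditions, with 37.9% and 6.74% for HIV RT, 27.3% and 16.0% for SuperScript III Mn, and 22.9% and 11.7% for SuperScript III Mg. At 1019, a cytidine, 46.6% of reads stopped with CMC and 11.9% in mock for SuperScript III Mn, the largest rise of that condition. It had 12.9% and 3.89% for HIV RT and 8.99% and 5.39% for SuperScript III Mg, the last below the 5 points asked for. For HIV RT, the 38 guanosines before uridine had a median change of 3.82 points and the 35 cytidines before uridine 3.75 points. Guanosines before cytidine and before guanosine had -0.373 and -0.472 points. Guanosines before uridine had median changes of 2.39 points for SuperScript III Mn and 1.53 for SuperScript III Mg, and cytidines before uridine 0.347 and 0.0980.

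Stops fell with CMC at 28 positions for HIV RT (3.22%, against a background of 3.66%), 37 for SuperScript III Mn (4.27%, against 1.98%) and 28 for SuperScript III Mg (3.25%, against 1.84%). For HIV RT these were 20 guanosines and 8 cytidines. For SuperScript III Mn they were 18 guanosines, 15 cytidines and 4 adenosines, and for SuperScript III Mg 12, 12 and 4. Of the segment's guanosines, 5.73%, 5.20% and 3.51% were called lower, against 6.03%, 1.63% and 1.56% in the rest of 28S. Cytidines had 2.14%, 4.01% and 3.22%, against 4.09%, 3.28% and 3.44%. Adenosines had 0%, 6.67% and 6.67%, against 2.58%, 1.49% and 1.90%. The largest falls for HIV RT were at 616 and 619, inside the coverage minimum. At 616 the stop share was 9.48% with CMC and 31.9% in mock for HIV RT, and 5.41% and 14.2% for SuperScript III Mn. At 619 it was 7.59% and 30.03%, and 4.89% and 17.4%. Neither was tested for SuperScript III Mg, where under 100 reads crossed in mock.

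For SuperScript III Mn the largest falls were at 620, with 38.0% against 56.5%, and at 621, with 14.4% against 30.4% (CMC against mock). These rest on 120 and 135 crossing reads in the mock library, and the widest 95% Wilson interval of a named stop share in that library was 6.44 points either side. For SuperScript III Mg they were at 1175, an adenosine with 13.7% against 31.8%, and at 1053, a cytidine with 12.2% against 26.7%. Both also fell with SuperScript III Mn, with 24.2% against 30.4% and 16.9% against 27.1%. Neither was called for HIV RT, with 5.41% against 5.35% at 1175 and 7.37% against 9.03% at 1053. Positions 645 and 1148 were lower in all 3 conditions, 2 of 861 positions against a background of 0.231%. At 645, a guanosine, the stop share was 5.22% and 11.8% for HIV RT, 4.96% and 12.5% for SuperScript III Mn, and 13.1% and 24.8% for SuperScript III Mg. At 1148, a cytidine a base away from the uridine at 1146, it was 3.67% and 12.4%, 4.83% and 10.2%, and 2.57% and 8.52%.

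A read can end where the enzyme halts or at the end of an RNA fragment, and the stop counts do not tell these apart. Stops of at least 10% in mock marked the sites where many reads ended without CMC. They were found at 71 positions of the segment for HIV RT (8.16%, against 4.74% in the rest of 28S), 73 for SuperScript III Mn (8.43%, against 4.37%) and 60 for SuperScript III Mg (6.97%, against 3.94%). Guanosines were 51, 41 and 35 of them, and uridines 2, 4 and 4. In the rest of 28S, guanosines were 105 of 199, 50 of 183 and 50 of 165 such positions, and uridines 4, 20 and 20. The median mock stop share was 2.23%, 1.49% and 1.36% in the segment and 2.18%, 1.90% and 1.70% elsewhere, so the excess lay in single strong sites and not in the typical position. The 5 highest means over the mock libraries were at 625, 626, 666, 866 and 914. At 626, the guanosine after 625, the stop share was 23.7% with CMC and 18.0% in mock for HIV RT, 51.1% and 49.96% for SuperScript III Mn, and 59.4% and 60.1% for SuperScript III Mg. At 666, a guanosine before adenosine, it was 18.6% and 16.3%, 22.2% and 31.1%, and 31.6% and 44.0%. At 866, between the 2 stretches of GGC units, it was 16.3% and 17.4%, 30.9% and 41.7%, and 24.3% and 28.7%. The SuperScript III mock libraries exceeded the HIV RT mock library at all 5, but the mean that chose them held more SuperScript III than HIV RT libraries. The highest HIV RT mock stop share of the segment, 33.7% at 1073, was not among the 5. Across the 861 positions tested in all conditions, mock stop shares had a Spearman's rho of 0.90 between the SuperScript III conditions, and of 0.64 and 0.65 between HIV RT and SuperScript III Mn and Mg. Those points share sequence and depth, and no p is given.

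The mutation share gives, in percent, how many of the reads crossing a position carried a base other than the reference. It rose with CMC at 6 positions for HIV RT (0.690%, against a background of 1.05%), 8 for SuperScript III Mn (0.924%, against 1.29%) and 1 for SuperScript III Mg (0.116%, against 0.159%). It fell at 2 for HIV RT (0.230%, against 0.101%), 8 for SuperScript III Mn (0.924%, against 0.332%) and 1 for SuperScript III Mg (0.116%, against 0.0868%). Uridines were 4, 6 and 1 of those that rose and none of those that fell. In the rest of 28S, uridines, listed ones included, were 37 of 41, 36 of 50 and 4 of 9 that rose. They were 1, 0 and 0 of those that fell there. Without the segment's positions that held the same other base in all 6 libraries, described below, 3 of its positions rose for HIV RT and 0 for SuperScript III Mg. The median change at uridines was 0.833 points for HIV RT, 0.959 for SuperScript III Mn and 0.222 for SuperScript III Mg, against 0.913, 0.733 and 0.136 at unlisted uridines elsewhere. Pooled over the segment's uridines, C was the leading wrong base, with 58.9% of mismatched reads with CMC and 47.3% in mock for HIV RT, 59.3% and 72.4% for SuperScript III Mn, and 68.5% and 67.0% for SuperScript III Mg. The uridines at 597, 792 and 868 described below are included in these pools.

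Among uridines, 1297 and 1225 had the largest mutation rises for SuperScript III Mn. At 1297 the mutation share was 7.72% with CMC and 0.134% in mock for SuperScript III Mn, 1.46% and 0.651% for HIV RT, and 2.07% and 0.0723% for SuperScript III Mg. At 1225, the first of 2 uridines in a row, it was 10.997% and 1.92% for SuperScript III Mn, 2.03% and 1.25% for HIV RT, and 3.53% and 2.60% for SuperScript III Mg. Only the SuperScript III Mn change was called at each of these uridines. The stop share at 1225 was 7.08% and 2.33% for SuperScript III Mn, 13.8% and 3.11% for HIV RT and 20.4% and 1.60% for SuperScript III Mg. At 1225 the library pair with the largest mutation change thus had the smallest stop change.

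By the base on the 3′ side, the median mutation change at uridines was largest before guanosine, with 1.86, 2.92 and 0.403 points (HIV RT, SuperScript III Mn, SuperScript III Mg), against 0.829, 0.847 and 0.234 before cytidine and 0.979, 1.33 and 0.178 before uridine. The 2 uridines before adenosine, which led for stops, had medians of 0.310, 0.196 and 0.126 points. Unlisted uridines elsewhere also had their largest HIV RT and SuperScript III Mn medians before guanosine, 1.73 and 1.17 points. With SuperScript III Mg their largest median was before uridine, 0.166 points, against 0.136 before guanosine. In the stop group, the mutation share at 911, before guanosine, was 6.06% with CMC and 1.52% in mock for HIV RT, 4.01% and 0.364% for SuperScript III Mn, and 0.731% and 0.372% for SuperScript III Mg. At 914, before adenosine, it was 0.842% and 0.680%, 0.319% and 0.0780%, and 0.321% and 0.118%. The uridine with more stops thus had the smaller mutation share in all 6 libraries.

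Few guanosines were called higher for mutations: 2 of 349 for HIV RT (0.573%), 2 of 346 for SuperScript III Mn (0.578%) and 0 of 342 for SuperScript III Mg. The rest of 28S had 0.0678%, 0.542% and 0.0678% of its guanosines called higher. Those called in the segment were 605 and 1024 for HIV RT, and 629 and 1024 for SuperScript III Mn. At 1024, the first G of the run that ends at 1029, the mutation share was 10.6% with CMC and 2.07% in mock for HIV RT, 8.36% and 1.05% for SuperScript III Mn, and 4.22% and 1.09% for SuperScript III Mg. At 629, the first G of a run of 5, it was 10.6% and 2.69% for SuperScript III Mn, 1.54% and 0.812% for HIV RT, and 1.93% and 0.273% for SuperScript III Mg. The falls given next are the largest called, out of 2 for HIV RT, 8 for SuperScript III Mn and 1 for SuperScript III Mg. Mock crossing reads were few at 615 (366, HIV RT), 622 (286, SuperScript III Mn) and 626 (332, SuperScript III Mg). The mutation share at 615 was 1.80% and 11.2% for HIV RT, and at 829 it was 1.57% and 8.57%. At 622 it was 4.37% and 14.3% for SuperScript III Mn, and at 626 it was 2.41% and 9.94% for SuperScript III Mg. At 862, in the GGC repeat, it was 5.60% and 13.5% for SuperScript III Mn. Position 1145, the last G before 1146, had among the highest mock means, with 2.88% and 5.23% for HIV RT, 12.9% and 17.4% for SuperScript III Mn, and 0.721% and 1.66% for SuperScript III Mg.

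A base encoded by some copies of ribosomal DNA should be read in all 6 libraries, since all came from the same line, whatever the treatment or enzyme. Positions where the same other base made up at least 2% of crossing reads in every library were counted for that reason. The segment had 7 of them among 861 positions (0.813%), against 27 of 4184 (0.645%) in the rest of 28S and a background of 0.521% over both rRNAs. They were T597G, T792C, G847T, C862T, C865T, T868C and C883G, where the first letter is the reference base, the number the position from the 28S 5′ end and the last letter the base read. Whether these bases lie in the DNA was not tested, and the tables do not link bases of a read.

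C883G and T868C had the highest shares by the lowest of the 6 libraries. At 883 the G made up 28.9% of reads with CMC and 24.6% in mock for HIV RT, 17.9% and 14.8% for SuperScript III Mn, and 24.8% and 21.0% for SuperScript III Mg. None of these changes reached 5 points, and at least 14.8% of reads carried the G in every library. At 868 the C made up 14.7% and 8.05% for HIV RT, 11.2% and 6.16% for SuperScript III Mn, and 15.8% and 14.2% for SuperScript III Mg. The mutation share at 868 was called higher for HIV RT and SuperScript III Mn, and its stop share was 19.6% and 8.61%, 8.35% and 2.78%, and 31.1% and 7.37%. Position 868 thus held a second base in all mock libraries and was also called higher for stops in all 3 conditions.

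Most of these positions lay in or beside the GGC repeat printed above. The reference has T at 868 between GGC units, and the other base there is the C of a unit. At 862 and 865, the last bases of the units before it, the other base is T. C862T made up 3.69% with CMC and 4.08% in mock for HIV RT, 3.81% and 11.3% for SuperScript III Mn, and 2.71% and 2.40% for SuperScript III Mg. C865T made up 3.96% and 6.10%, 2.66% and 4.19%, and 3.92% and 2.88%. At 871, the unit after, C871T was present at 1.90% or more in every library. The T was thus read at 4 positions 3 nt apart, counting the reference T at 868. G847T, just before the repeat, made up 2.52% and 3.92%, 4.04% and 6.31%, and 3.80% and 4.72%.

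T792C lies in a stretch of C and U outside the repeat. It made up 8.88% with CMC and 3.02% in mock for HIV RT, 8.37% and 2.42% for SuperScript III Mn, and 10.7% and 3.69% for SuperScript III Mg. The mutation share at 792 was called higher in all 3 conditions, by 6.09, 6.01 and 7.06 points, the 1 position of the segment so called (0.0723% over all positions). No position was called lower in all 3 conditions (0.0289% over all positions). Its stop share stayed at or below 1.10% in every library. The stop change at 792 was 0.769, 0.279 and 0.132 points, small beside its mutation change.

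T597G differed by enzyme more than by treatment. The G made up 38.7% with CMC and 27.5% in mock for HIV RT, 4.64% and 2.56% for SuperScript III Mn, and 5.61% and 4.50% for SuperScript III Mg. The Wilson intervals of the HIV RT libraries did not overlap those of the SuperScript III libraries. G605C, 8 nt away, showed the same split at a lower floor: 22.6% and 13.3% for HIV RT, 1.58% and 1.24% for SuperScript III Mn, and 3.60% and 1.17% for SuperScript III Mg. Both lie at the 5′ side of the coverage minimum, with as few as 343 crossing reads at 605, in the SuperScript III Mg mock library. The mutation share was called higher with CMC at 597 (adjusted p = 4.05e-24) and at 605 (adjusted p = 3.07e-10) for HIV RT by Fisher's exact test, and at neither with SuperScript III.

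**Figure D5:**
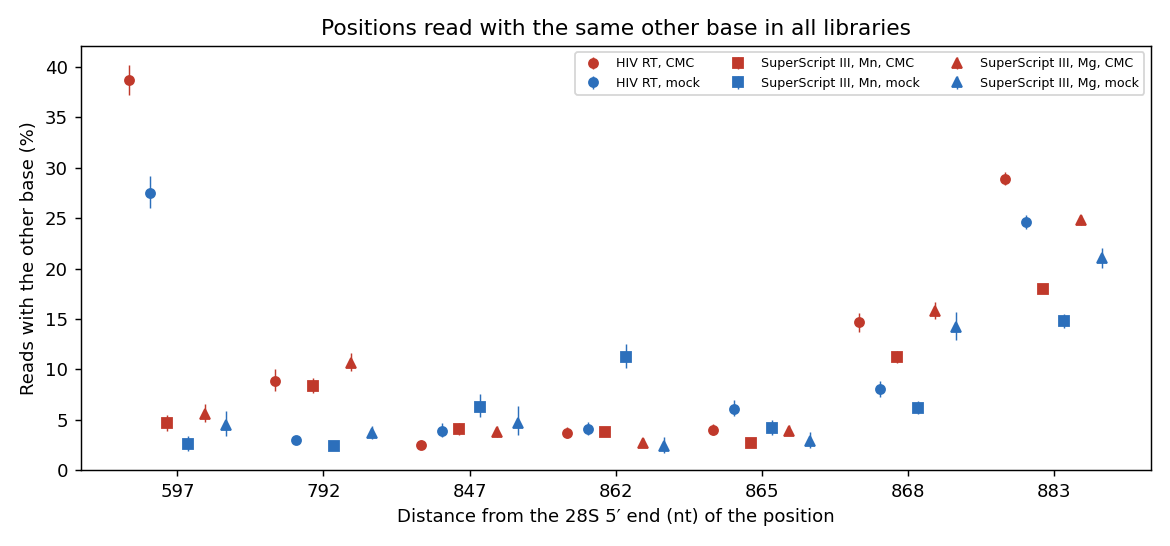
Percent of crossing reads with the other base at the 7 positions where it reached 2% in all 6 libraries, with 95% Wilson intervals as bars. The axis gives the distance of each position from the 28S 5′ end in nt; CMC is red and mock blue, circles are HIV RT, squares SuperScript III Mn and triangles SuperScript III Mg. Values at 883 are between 14.8% and 28.9% in all libraries, while those at 597 are high only in the HIV RT libraries.

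Changes with CMC were partly shared between conditions. Over the 861 positions, Spearman's rho of the stop change was 0.68 between the SuperScript III conditions, 0.55 between HIV RT and SuperScript III Mn, and 0.55 between HIV RT and SuperScript III Mg. For the mutation change it was 0.51, 0.65 and 0.43. The rest of 28S had 0.75, 0.62 and 0.64 for stops and 0.53, 0.61 and 0.41 for mutations over 4184 positions. These are descriptions over positions that share sequence.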

How the data were processed

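CMC and mock libraries of HEK293T/17 rRNA were compared within each of 3 reverse transcription conditions, 1 library per group, with groups taken from the labels. For each library the authors deposited a table per rRNA, 12 in all. Per the file headers, these hold counts of crossing reads in all and by base, stops per position as another whole-number count (unit "other"), and a mismatch rate and a stop frequency as a fraction. Both deposited fractions were recomputed from the counts and agreed within 1e-09. The submitters' processing notes name Trimmomatic 0.32 and Bowtie 1.0. Tool settings, the origin of the reference and the placing of a stop beside the last copied base were, in the sources used here, not given. No genome build applies.

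Stops summed to between 21206954 and 47002169 per library over both rRNAs. Positions needed 100 crossing reads in both libraries. Calls used Fisher's exact test (scipy 1.17.1) with Benjamini-Hochberg adjustment over both rRNAs, at 0.05 and 5 points, and shares have 95% Wilson intervals. The script was tested on simulated data. Named positions are, per condition and measure, the 4 largest called rises and 2 largest called falls; stops called alike in all 3 conditions (or the 6 largest mean changes); the 5 highest mock means; all positions with the same other base at 2% or more; and the 3 lowest and 3 highest windows. Positions 467, 686, 688, 798, 871, 912, 1159, 624 and 638 were added after their values were seen. The members and lists were chosen with earlier results of these data known, and the pseudouridine list (59 positions, 58 on U) comes from general knowledge. Alternatives changed the size of difference, the read minimum, the ends of the segment, the coverage reference, pooling over uridines and the positions with another base.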

Additional observations from a re-analysis of the deposited data

Results flagged for a closer look

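At 2 positions stops were called in opposite directions in different conditions. Both lie at the 3′ side of the coverage minimum, and the difference between conditions was not itself tested. The share of positions called so over both rRNAs is not given here. At 624, the stop share changed by 20.1 points for HIV RT, with 38.4% with CMC and 18.3% in mock. For SuperScript III Mg it changed by -6.57 points, with 8.81% and 15.4%, and for SuperScript III Mn the shares were 18.1% and 18.2%. At 638, a guanosine before uridine, it changed by 13.61 points for HIV RT (22.2% with CMC, 8.55% in mock) and by 6.85 points for SuperScript III Mn (39.2% and 32.4%). For SuperScript III Mg the change at 638 was -8.67 points (27.96% and 36.6%).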

How the results depend on the processing

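No paired analysis was possible because the labels give no replicate numbers and each group has 1 library. With a size bar of 2 points, stops were called higher at 152, 82 and 107 positions and lower at 115, 101 and 97, and mutations higher at 18, 30 and 12 and lower at 17, 30 and 7 (HIV RT, SuperScript III Mn, SuperScript III Mg). With a bar of 10 points, stops were called higher at 30, 19 and 25 and lower at 8, 7 and 9, and mutations higher at 1, 0 and 0 and lower at 0, 0 and 0. The background over both rRNAs was computed at 5 points only, so counts at the other bars cannot be set against it. With at least 1000 crossing reads, mutations were called lower at 1 position for HIV RT and 0 for SuperScript III Mg, and 22 other results stayed within the limits set. Without the positions that hold another base in all libraries, mutations were called higher at 3 positions for HIV RT and 0 for SuperScript III Mg. Pooling reads over uridines weights deep positions, and gave stop changes of 6.36, 6.43 and 9.70 points and mutation changes of 1.14, 1.57 and 0.454 points. Against the median over both rRNAs, mock coverage was 16.7%, 10.3% and 9.01%. At a minimum of 1% in all libraries 15 positions held another base, at 5% 2 positions, and in the mock libraries alone 8, adding C1125T. Trimming 20 positions at each end moved none of the 6 results it was run on beyond those limits. Depth limits the coverage minimum: the widest interval of a named stop share was 8.21 points either side in the SuperScript III Mg mock library, against 2.88 with CMC and 3.85 in mock for HIV RT.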
